A study of Mus musculus with 8 samples.

Results

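The genes described here make up the endoplasmic reticulum (ER) folding and unfolded protein response module of the mouse suprachiasmatic nucleus (SCN), the paired hypothalamic nucleus that houses the central circadian clock. The module is a fixed list of 35 gene symbols, and each gene was read from the probe set annotated to that symbol alone, the brightest one where there were several. All 35 were measured, of 19938 genes with such a probe set, and all 35 were bright enough to be among the 12452 genes tested. The rule that picks the probe sets uses no difference between groups, but the list itself was drawn up with earlier results of these data known.

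Secreted and membrane proteins enter the ER unfolded, and resident chaperones, disulfide isomerases and lectins fold them there. When unfolded protein accumulates, the sensors Ern1 (IRE1), Eif2ak3 (PERK) and Atf6 act through the transcription factors Xbp1, Atf4 and the cleaved form of Atf6, which raise chaperone and degradation genes. Proteins that fail to fold are pulled back to the cytosol and destroyed, a route called ER-associated degradation. SCN neurons make neuropeptides such as vasopressin, which pass through this compartment on their way to secretory granules.

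RNA was measured on 8 single-colour arrays, 2 from each of 4 groups: Gpr176-/- mice at circadian time 18 (KO CT18), Gpr176-/- mice at circadian time 6 (KO CT6), wild-type mice at circadian time 18 (WT CT18) and wild-type mice at circadian time 6 (WT CT6). Gpr176 encodes a G protein-coupled receptor with no known ligand that SCN neurons make. All mice were C57BL/6J, had been kept on 12 h of light and 12 h of dark for more than 2 weeks, and were then in constant darkness, where CT6 falls in the subjective day and CT18 in the subjective night. Each array held RNA from laser-dissected SCN of 10 animals pooled, so the 2 arrays of a group, called A and B, are separate pools and the spread between single animals is not seen. The labels give neither age nor sex, nor which part of Gpr176 was deleted.

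Levels are log2 intensities, and the number of arrays limits their precision: the median standard error (SE) of a difference was 0.0636 between 2 groups and 0.0449 between times over both genotypes. Correlation between pools A and B over the 12452 genes tested ran between 0.9953 and 0.9963 in the 4 groups. Gpr176 itself measured 8.42 and 8.56 in KO CT18 and 8.08 and 8.02 in KO CT6, against 9.73 and 9.87 in WT CT18 and 9.37 and 9.31 in WT CT6, so each KO array lay below each WT array (log2 difference -1.30 ± 0.0491 SE, limma adjusted p = 3.37e-06). All 13 SCN markers, among them Avp, Vip, Six6, Lhx1 and Rorb, were above the filter for dim genes. Their mean level was 10.28 to 10.38 on the CT18 arrays and 10.56 to 10.71 on the CT6 arrays. At CT18, 3 markers were called higher (limma adjusted p under 0.05) and 6 lower. Of those lower, Prok2 differed by -2.67, Rgs16 by -1.40 and Avp by -0.90 on the log2 scale, while the median difference of all 13 was 0.0315. The list also holds Gpr176 itself. Oligodendrocyte markers averaged 9.35 to 9.71 at CT18 and 9.49 to 9.73 at CT6, with 1 called higher and 2 lower of 11 tested. Their widest gap between pools of a group was in WT CT18, at 9.71 in A and 9.35 in B. Astrocyte markers averaged 10.57 to 10.75 at CT18 and 10.63 to 10.74 at CT6 (2 higher and 1 lower of 10), endothelial and mural markers 7.92 to 8.09 and 8.07 to 8.14 (0 higher and 2 lower of 8), and ependymal markers 9.13 to 9.25 and 9.20 to 9.30 (0 higher and 2 lower of 8). Of 8 microglial markers tested, 0 were called. The part of these markers in the differences of the members was not tested. Leptomeningeal markers differed between pools of the same group, at 8.11 in KO CT6 A but 7.63 in KO CT6 B, at 8.08 in WT CT18 A but 7.46 in WT CT18 B, and at 7.89 in WT CT6 B but 7.50 in WT CT6 A. None of the 9 leptomeningeal markers tested was called, and Lum, a defining one, was below the filter at 5.55. In such bulk tissue, fewer cells of a type and less RNA per cell cannot be told apart.

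Many of these genes carry near their start the ER stress response element (ERSE), through which Atf6 and Xbp1 act together with NF-Y. RefSeq promoter windows of the GRCm38.p6 assembly, from 250 bases before to 50 after each annotated start, were found for 30 of the 35 members. Atf6, Derl1, Hyou1, Manf and Sil1 had none in the table. Searched on both strands, the letters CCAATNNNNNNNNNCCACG were present in 9 of the 30 members, in 0.119% of all 32851 windows and in 0.125% of the 12762 windows of tested genes. The 4 elements of members that were higher at CT18 and 2 of members that were not called are shown for comparison, each read in the direction of the element, with the matched letters in capitals and 10 flanking bases on each side.
Hspa5 ERSE, chr2:34772015-34772053, + strand: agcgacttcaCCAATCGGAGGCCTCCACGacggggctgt
Pdia6 ERSE, chr12:17266481-17266519, + strand: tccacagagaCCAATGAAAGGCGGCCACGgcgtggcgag
Creld2 ERSE, chr15:88819510-88819548, - strand: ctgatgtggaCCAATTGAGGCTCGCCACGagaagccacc
Calr ERSE, chr8:84847065-84847103, + strand: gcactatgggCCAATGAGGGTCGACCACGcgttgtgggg
Canx ERSE, chr11:50325790-50325828, - strand: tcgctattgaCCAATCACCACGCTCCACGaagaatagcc
Syvn1 ERSE, chr19:6046522-6046560, + strand: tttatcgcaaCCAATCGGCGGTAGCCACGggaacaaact

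The elements of Calr and Creld2 lie on the strand opposite to the gene, and those of Hspa5, Pdia6, Canx and Syvn1 on the gene's own strand. In Hspa5 the element begins 65 bases before the start. The other members with the exact letters were Derl3, Dnajc3 and Hsp90b1, which holds 2 of them. A shorter form, ERSE-II, has the letters ATTGGNCCACG. It was present in Herpud1 and Dnajb11 among the members in 0.0365% of all windows and in 0.0627% of those of tested genes.
Herpud1 ERSE-II, chr8:94386367-94386397, + strand: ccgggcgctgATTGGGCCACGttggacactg
Dnajb11 ERSE-II, chr16:22857842-22857872, + strand: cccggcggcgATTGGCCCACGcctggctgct

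The Herpud1 copy begins 52 bases before the start, and the Dnajb11 copy begins 7 bases after the first transcribed base. Of the 9 members with an ERSE, 4 were called higher at CT18, 0 lower and 5 were not called, while the ERSE-II members were called in opposite directions. Over all genes tested, 10.0% were called higher and 6.79% lower, and no test of these counts was made. With at most 1 fixed letter allowed to differ, an ERSE was present in 15 of the 30 members, of which 5 were called higher and 1 lower, and in 1.5% of all windows. Sdf2l1, the member that changed most, was not among these 15, and its window is printed whole beside that of Hspa5, whose ERSE is in capitals.
Sdf2l1 promoter, chr16:17132334-17132633, - strand: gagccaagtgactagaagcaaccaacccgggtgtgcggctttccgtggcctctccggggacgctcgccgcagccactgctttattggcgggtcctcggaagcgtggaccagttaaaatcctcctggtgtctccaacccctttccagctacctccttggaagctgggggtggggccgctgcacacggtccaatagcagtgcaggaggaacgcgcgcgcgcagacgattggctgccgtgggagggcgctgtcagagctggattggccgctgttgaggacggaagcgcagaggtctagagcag
Hspa5 promoter, chr2:34771840-34772139, + strand: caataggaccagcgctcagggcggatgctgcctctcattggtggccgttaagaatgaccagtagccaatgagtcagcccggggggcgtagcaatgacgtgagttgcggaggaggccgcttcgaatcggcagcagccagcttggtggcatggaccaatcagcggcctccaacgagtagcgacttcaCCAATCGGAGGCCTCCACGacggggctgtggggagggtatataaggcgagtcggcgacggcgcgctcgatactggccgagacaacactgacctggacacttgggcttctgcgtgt

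The other motifs searched on both strands were at few members, and their shares are given for all windows and then for those of tested genes. The E-box CACGTG, the letters that the clock activators Clock and Arntl bind, was in the windows of Calr, Derl3, Dnajb9 and Txndc5, in 7.15% of all windows and in 9.58% of those of tested genes. The D-box TTANGTAA was in Os9, with shares of 2.32% and 1.47%. The amino acid response letters TGATGNAA, bound by Atf4 with a C/EBP partner, were in Herpud1 and Txndc5, with shares of 3.97% and 2.22%. TGACGTGG, the core of the unfolded protein response element, was in Txndc5, with shares of 0.676% and 0.917%. The cAMP element TGACGTCA was in 0 members, with shares of 1.79% and 2.98%, and the heat shock element GAANNTTCNNGAA was in 0 members, with shares of 0.603% and 0.47%. No match overlapped one of another motif in these windows. A match describes letters in a window and not a bound site.

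**Figure D1:**
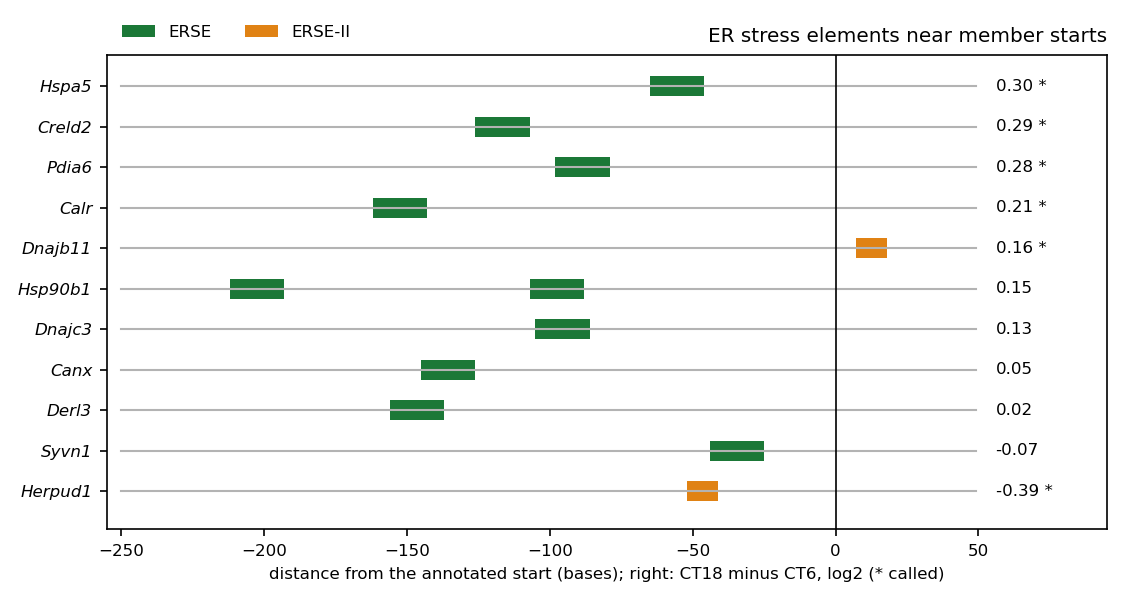
Position of ERSE (green) and ERSE-II (orange) letters in the promoter windows of the 11 members that hold one, in bases from the annotated start at 0. The log2 difference between CT18 and CT6 is written at the right, with a star where it was called, and runs between 0.30 for Hspa5 and -0.39 for Herpud1.

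The first comparison asked which members differ between subjective night and subjective day. Over both genotypes, 9 members were higher at CT18 (25.7% of the 35, against 10.0% of all genes tested) and 3 were lower (8.57%, against 6.79% of all genes tested). The members higher at CT18 were Sdf2l1, Hspa5, Creld2, Pdia6, Pdia4, Hyou1, Calr, Manf and Dnajb11, which fold proteins or assist the folding chaperone, and those lower were Herpud1, Dnajb9 and Atf6. Calls are limma's moderated test on 4 arrays against 4, at a Benjamini-Hochberg adjusted p under 0.05 over all 12452 genes. The median log2 difference of the 35 members was 0.0484, with 24 above 0, against 0.0104 over all genes, of which 54.5% were above 0. The 4 arrays at CT18 and the 4 at CT6 did not overlap for 12 members (34.3%), as for 21.0% of all genes tested. Without KO CT6 A, the pool with the highest leptomeningeal level, 10 members were called, and without WT CT18 A, the next highest, 13 were called.

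**Figure D2:**
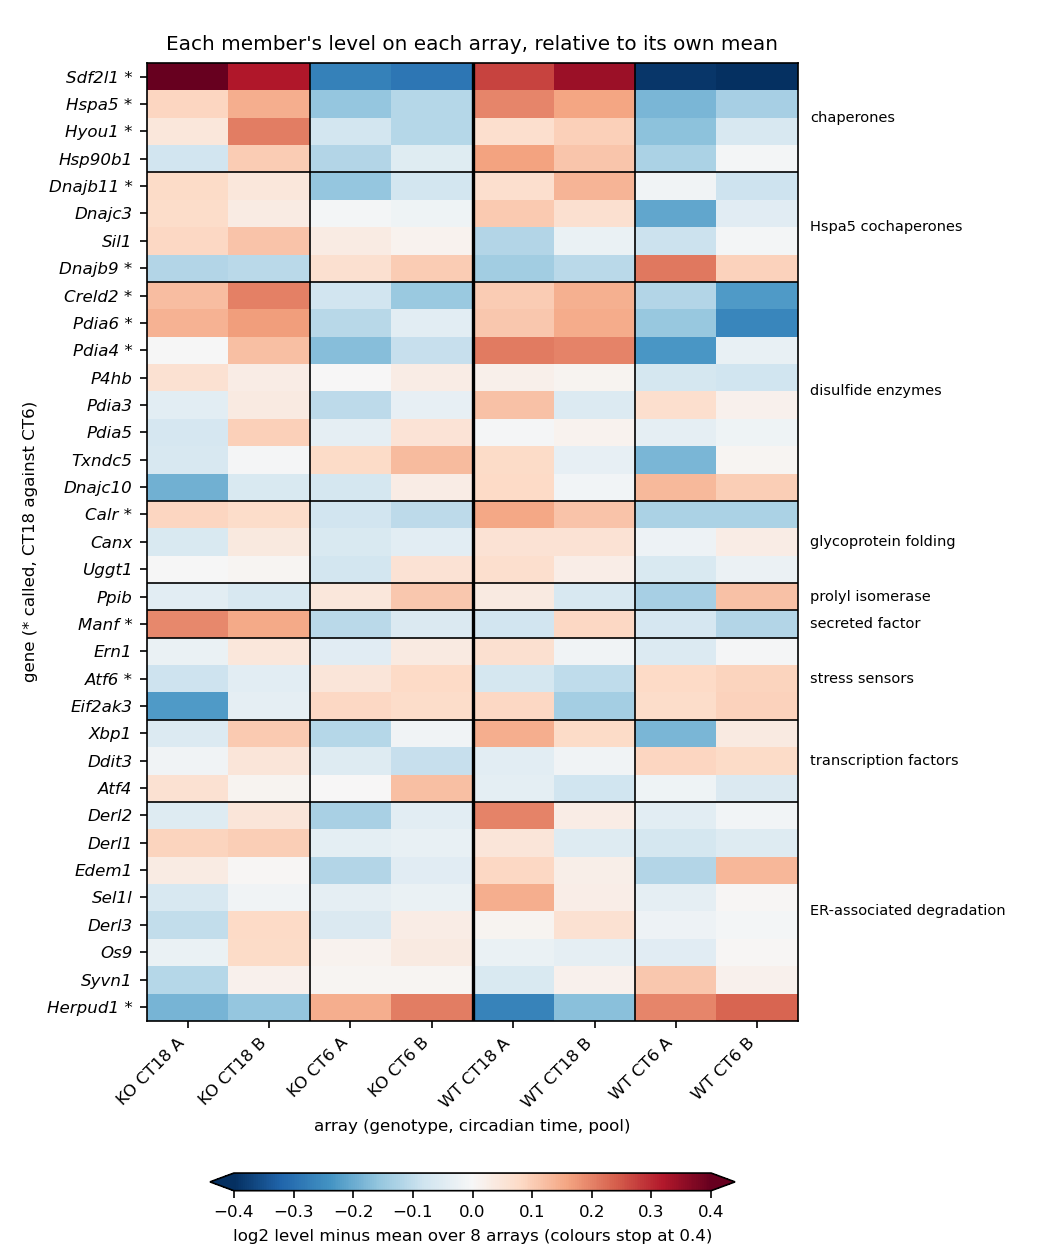
Log2 level of each of the 35 members on each of the 8 arrays, minus the gene's own mean over the 8 arrays, with rows grouped by role and a star where the gene was called between CT18 and CT6. Sdf2l1 and Herpud1 show opposite colours at the same times, and colours stop at 0.4.

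Among the 4 lumenal chaperones, 3 were higher at CT18 and the median log2 difference was 0.253. Sdf2l1 is a small ER protein that binds the cochaperone Dnajb11 and keeps clients of Hspa5 soluble. It measured 9.47 and 9.38 in KO CT18 and 9.33 and 9.40 in WT CT18, against 8.79 and 8.77 in KO CT6 and 8.67 and 8.66 in WT CT6. All night arrays stood far above all day arrays, and pools of one group lay close together. Sdf2l1 was 1.59-fold higher at CT18 (log2 difference 0.67 ± 0.0393 SE, 95% interval 0.58 to 0.76, adjusted p = 4.5e-06), the largest change of the 35 members.

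Hspa5 (BiP, GRP78) is the ER's Hsp70 chaperone and, when bound to the stress sensors, keeps them inactive. Its level was 11.62 and 11.68 in KO CT18 and 11.73 and 11.69 in WT CT18, against 11.38 and 11.42 in KO CT6 and 11.35 and 11.40 in WT CT6. The night and day arrays did not overlap. Hspa5, whose promoter is printed above, was 1.23-fold higher at CT18 (log2 difference 0.30 ± 0.0382 SE, 95% interval 0.21 to 0.38, adjusted p = 0.000784).

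Hyou1 is a large Hsp70-like protein that exchanges nucleotide on Hspa5. It measured 10.15 and 10.31 in KO CT18 and 10.17 and 10.20 in WT CT18, against 10.03 and 9.99 in KO CT6 and 9.94 and 10.04 in WT CT6. The groups were separate, with a gap smaller than the distance between the KO CT18 pools. Hyou1 was 1.16-fold higher at CT18 (log2 difference 0.21 ± 0.0471 SE, adjusted p = 0.0143), and the adjusted p was 0.0539 without WT CT6 A and 0.0515 without KO CT18 B.

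Hsp90b1 (GRP94), the ER's Hsp90 chaperone, was not called. It read 11.39 and 11.57 in KO CT18 and 11.63 and 11.58 in WT CT18, against 11.35 and 11.42 in KO CT6 and 11.34 and 11.46 in WT CT6. KO CT18 A was the only night array within the range of the day arrays. The log2 difference was 0.15 ± 0.0506 SE (95% interval 0.04 to 0.26, adjusted p = 0.0699), and without KO CT18 A it was 0.195 with an adjusted p of 0.0356.

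The cochaperones of Hspa5 differed among themselves: of 4, 1 was higher and 1 lower at CT18. Dnajb9 (ERdj4) is a J-domain protein that brings Hspa5 to Ern1 and so holds that sensor back. It measured 10.54 and 10.55 in KO CT18 and 10.52 and 10.55 in WT CT18, against 10.72 and 10.76 in KO CT6 and 10.87 and 10.75 in WT CT6. The 4 night arrays were nearly level with each other and below every day array. The log2 difference was -0.23 ± 0.0405 SE (95% interval -0.32 to -0.14, adjusted p = 0.00411).

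Dnajb11 (ERdj3) is the J-domain partner of Sdf2l1. It measured 8.12 and 8.09 in KO CT18 and 8.11 and 8.18 in WT CT18, against 7.89 and 7.97 in KO CT6 and 8.03 and 7.96 in WT CT6. Night and day arrays were separate by a narrow gap. Dnajb11 was 1.12-fold higher at CT18 (log2 difference 0.16 ± 0.0407 SE, adjusted p = 0.0234). This call was lost, with adjusted p between 0.0588 and 0.0828, without WT CT6 B, WT CT18 B, KO CT6 A, KO CT18 A or KO CT18 B.

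Dnajc3 (p58IPK), a further J-domain protein, was not called. It read 9.49 and 9.45 in KO CT18 and 9.52 and 9.48 in WT CT18, against 9.41 and 9.40 in KO CT6 and 9.21 and 9.37 in WT CT6. Its night arrays did not overlap its day arrays, and WT CT6 A stood lowest. The log2 difference was 0.13 ± 0.0448 SE (adjusted p = 0.069), and the adjusted p was 0.0315 without WT CT6 B. A second probe set for the gene gave the same levels at 2 decimals. Sil1, a nucleotide exchange factor for Hspa5, had a log2 difference of 0.03 between the times (adjusted p = 0.732).

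Of the 8 enzymes that make or exchange disulfide bonds, 3 were higher at CT18 and 0 lower. Creld2 is a secreted ER protein with isomerase activity. It measured 9.39 and 9.47 in KO CT18 and 9.37 and 9.41 in WT CT18, against 9.19 and 9.12 in KO CT6 and 9.15 and 9.04 in WT CT6. The groups were well separated. Creld2 was 1.22-fold higher at CT18 (log2 difference 0.29 ± 0.0435 SE, 95% interval 0.19 to 0.38, adjusted p = 0.00198).

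Pdia6 is an isomerase that works with Hspa5 and acts on the sensor Ern1. It measured 9.49 and 9.52 in KO CT18 and 9.46 and 9.50 in WT CT18, against 9.24 and 9.31 in KO CT6 and 9.20 and 9.09 in WT CT6. The night arrays lay within a narrow band above all day arrays. Pdia6 was 1.22-fold higher at CT18 (log2 difference 0.28 ± 0.0412 SE, 95% interval 0.19 to 0.37, adjusted p = 0.00164).

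Pdia4 (ERp72) is a multidomain isomerase. It measured 10.43 and 10.55 in KO CT18 and 10.64 and 10.63 in WT CT18, against 10.26 and 10.34 in KO CT6 and 10.20 and 10.40 in WT CT6. KO CT18 A and WT CT6 B nearly met, and the other arrays were apart. Pdia4 was 1.2-fold higher at CT18 (log2 difference 0.26 ± 0.0528 SE, 95% interval 0.14 to 0.38, adjusted p = 0.00867). A dimmer probe set of the gene, below the filter at a mean of 6.60, had a log2 difference of 0.14.

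The other 5 disulfide enzymes were not called. P4hb (PDI), the founding isomerase, had a log2 difference of 0.06 (adjusted p = 0.293). Pdia3 (ERp57), which pairs with the lectin chaperones, had 0.03 (adjusted p = 0.767), and Pdia5 had 0.02 (adjusted p = 0.816). Txndc5 (ERp46) had -0.01 (adjusted p = 0.899). Dnajc10 (ERdj5), a reductase that opens disulfides before degradation, had -0.10 ± 0.0462 SE (adjusted p = 0.199). The median over all 8 was 0.0437, and each of the 5 was at most 0.10 in size, against 0.26 to 0.29 for the 3 called enzymes.

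Of the 3 members that fold glycoproteins, Calr (calreticulin), the soluble lectin chaperone, was higher at CT18. It measured 11.61 and 11.60 in KO CT18 and 11.68 and 11.64 in WT CT18, against 11.45 and 11.42 in KO CT6 and 11.40 and 11.40 in WT CT6. Every night array was above every day array, and the pools of a group were nearly equal. Calr was 1.16-fold higher at CT18 (log2 difference 0.21 ± 0.0356 SE, 95% interval 0.13 to 0.29, adjusted p = 0.00344). Canx (calnexin), its membrane-bound relative, had a log2 difference of 0.05 (adjusted p = 0.448), with an ERSE in its promoter as in that of Calr. Uggt1, the glucosyltransferase that returns unfolded glycoproteins to these lectins, also had 0.05 (adjusted p = 0.507). Ppib (cyclophilin B), a prolyl isomerase, had -0.07 (adjusted p = 0.459).

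Manf is a small ER protein, secreted under stress, with neurotrophic activity. It measured 8.86 and 8.82 in KO CT18 and 8.59 and 8.75 in WT CT18, against 8.56 and 8.61 in KO CT6 and 8.60 and 8.55 in WT CT6. WT CT18 A lay among the day arrays, and the KO CT18 arrays were the highest. Over both genotypes Manf was 1.13-fold higher at CT18 (log2 difference 0.17 ± 0.0453 SE, adjusted p = 0.0281). The adjusted p was between 0.0556 and 0.0919 without WT CT6 A, WT CT6 B, WT CT18 B, KO CT6 A, KO CT18 A or KO CT18 B, so this call rests on having all of those arrays.

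Of the 3 sensors, 1 was called lower at CT18 and 0 were called higher, with a median log2 difference of -0.15. Differences between the sensors were not tested. Atf6, the sensor that is cut in the Golgi to free a transcription factor, measured 9.19 and 9.23 in KO CT18 and 9.20 and 9.17 in WT CT18, against 9.32 and 9.35 in KO CT6 and 9.35 and 9.36 in WT CT6. Arrays of one time were close and the times were separate. The log2 difference was -0.15 ± 0.0361 SE (95% interval -0.23 to -0.07, adjusted p = 0.0199). This call was lost on the deposited scale (adjusted p = 0.0762), with arrays centred on their medians (adjusted p = 0.106), and, at adjusted p between 0.0581 and 0.0656, without WT CT6 B, WT CT18 B, KO CT6 B or KO CT18 A.

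Eif2ak3, the kinase that slows translation under ER stress, was not called. It read 7.86 and 8.05 in KO CT18 and 8.17 and 7.95 in WT CT18, against 8.17 and 8.16 in KO CT6 and 8.16 and 8.18 in WT CT6. The day arrays agreed closely while the night arrays were spread, and WT CT18 A was level with the day. Its log2 difference was -0.16 ± 0.0578 SE (95% interval -0.29 to -0.03, adjusted p = 0.0929), and without WT CT18 A it was -0.212 with an adjusted p of 0.0378. Ern1, the kinase and nuclease that splices Xbp1 RNA, had 0.03 ± 0.042 SE (adjusted p = 0.653).

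None of the 3 transcription factors was called. Xbp1 read 11.20 and 11.36 in KO CT18 and 11.40 and 11.33 in WT CT18, against 11.14 and 11.24 in KO CT6 and 11.07 and 11.29 in WT CT6. Within KO CT18 and within WT CT6 its pools differed by more than the times did (log2 difference 0.14 ± 0.0595 SE, adjusted p = 0.156), and these values do not separate spliced from unspliced Xbp1 RNA. Atf4, which is controlled mainly at translation, had -0.02 ± 0.0415 SE (95% interval -0.12 to 0.07, adjusted p = 0.771). Ddit3 (CHOP), the factor linked to cell death under lasting stress, had -0.01 ± 0.037 SE (95% interval -0.09 to 0.07, adjusted p = 0.915).

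Of the 8 members of ER-associated degradation, 1 was lower at CT18 and 0 were higher. Herpud1 is an ER membrane protein with a ubiquitin-like domain that organises the Syvn1 ligase complex. It measured 10.18 and 10.21 in KO CT18 and 10.10 and 10.20 in WT CT18, against 10.51 and 10.57 in KO CT6 and 10.56 and 10.60 in WT CT6. All night arrays were well below all day arrays, the reverse of Hspa5 and Sdf2l1. The log2 difference was -0.39 ± 0.0403 SE (a ratio of 0.763, 95% interval -0.48 to -0.30 on the log2 scale, adjusted p = 0.000198).

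The ligase Syvn1 (HRD1) had a log2 difference of -0.07 (adjusted p = 0.335), and its adaptor Sel1l had 0.05 (adjusted p = 0.482). Edem1, which trims mannose from proteins bound for degradation, had 0.07 (adjusted p = 0.426), and the lectin Os9 had -0.00 (adjusted p = 0.964). Of the derlins, membrane proteins of the export channel, Derl1 had 0.10 ± 0.0385 SE (adjusted p = 0.119), Derl2 had 0.11 ± 0.0486 SE (adjusted p = 0.158) and Derl3 had 0.02 (adjusted p = 0.787). Apart from Herpud1, none of this group passed the test.

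**Figure D3:**
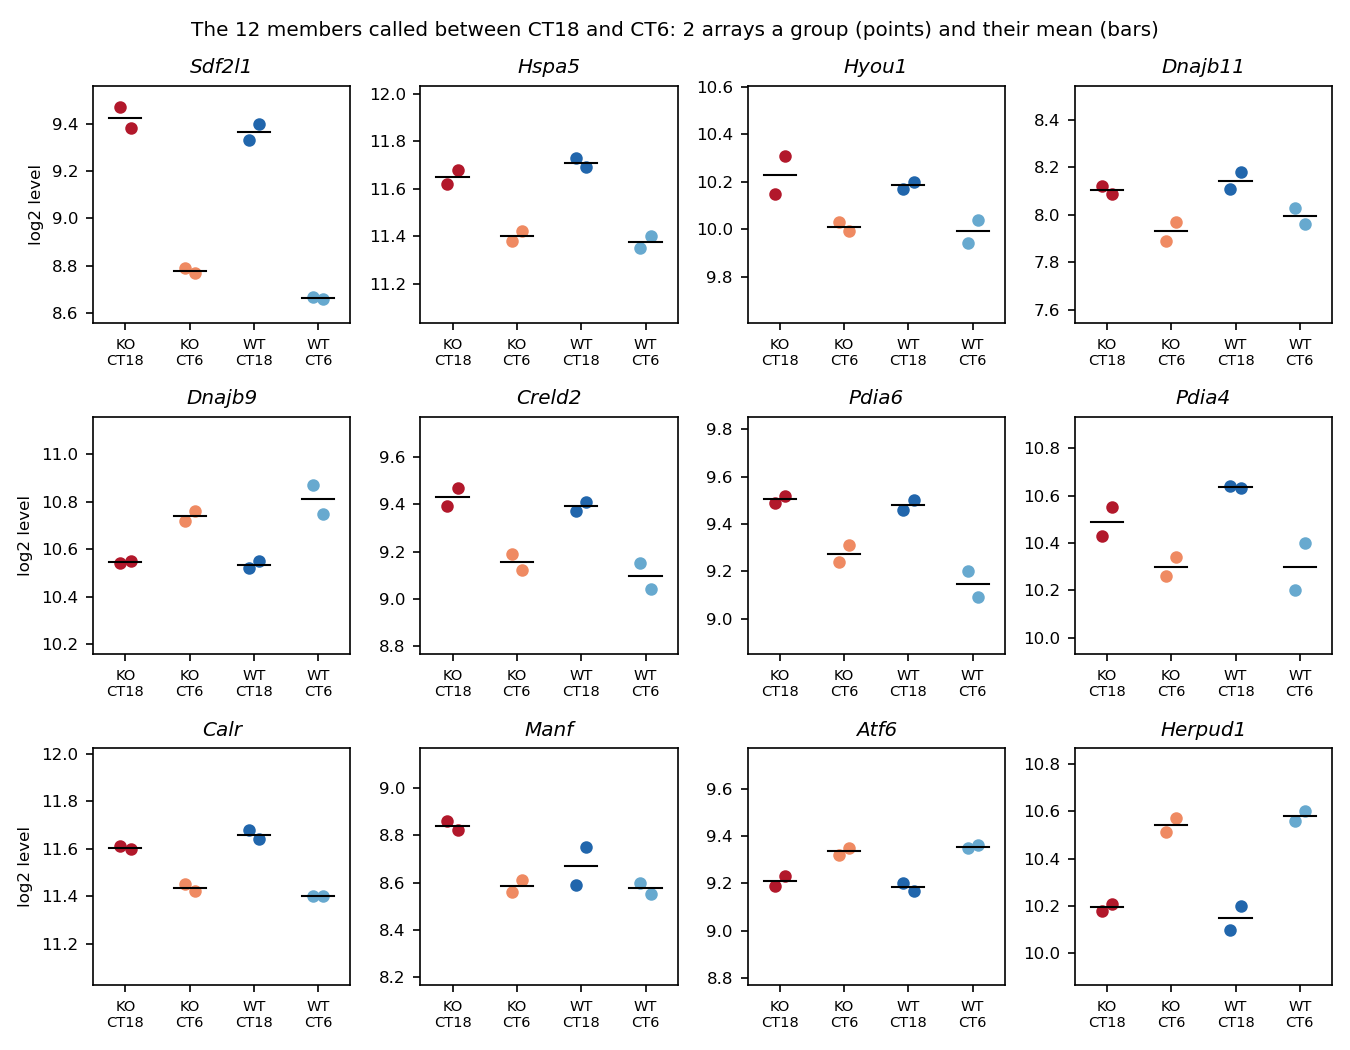
Log2 level of the 12 members called between CT18 and CT6, with a point for each of the 2 arrays of a group and a bar for their mean. Each panel spans 1 log2 unit around the gene's own mean, so panel heights can be compared and absolute positions cannot. The night and day points overlap for Manf alone.

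The same contrast was then taken within each genotype. In Gpr176-/- SCN, 5 members were higher at CT18 (14.3% of the 35, against 3.63% of all genes tested) and 1 was lower (2.86%, against 3.53%). In wild-type SCN, 6 were higher (17.1%, against 4.40%) and 2 lower (5.71%, against 2.54%). Sdf2l1, Hspa5, Pdia6, Creld2 and Herpud1 were called in both genotypes, Manf in Gpr176-/- SCN and not in wild-type SCN, and Calr, Dnajb9 and Pdia4 in wild-type SCN and not in Gpr176-/- SCN. The median log2 difference of the members was 0.0608 in Gpr176-/- SCN, against 0.00908 over all genes, and 0.0615 in wild-type SCN, against 0.0164 over all genes.

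With 2 arrays a group, these counts depended on single arrays. The Gpr176-/- count was 2 without KO CT6 A, KO CT6 B or KO CT18 B and 1 without KO CT18 A, and it was also 2 on the deposited scale. The wild-type count was 5 without WT CT6 A or WT CT6 B and 3 without WT CT18 A or WT CT18 B.

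Sdf2l1 differed by 0.65 ± 0.0556 SE on the log2 scale in Gpr176-/- SCN (adjusted p = 0.000133) and by 0.70 ± 0.0556 SE in wild-type SCN (adjusted p = 8.52e-05). Hspa5 differed by 0.25 in Gpr176-/- SCN (adjusted p = 0.0223) and by 0.34 in wild-type SCN (adjusted p = 0.00574). Herpud1 differed by -0.35 in Gpr176-/- SCN (adjusted p = 0.00644) and by -0.43 in wild-type SCN (adjusted p = 0.00196). The spread in these tests is estimated from all 8 arrays. For Hspa5 in Gpr176-/- SCN the call was lost with only the 4 Gpr176-/- arrays fitted (adjusted p = 0.0542), on the deposited scale (0.0646), with arrays centred on their medians (0.0909) and without any 1 of those 4 arrays (0.0639 to 0.137). For Hspa5 in wild-type SCN it was lost without WT CT18 A (adjusted p = 0.0551), and for Herpud1 in Gpr176-/- SCN without KO CT18 A (adjusted p = 0.0529).

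Pdia6 differed by 0.23 in Gpr176-/- SCN (adjusted p = 0.0456) and by 0.33 in wild-type SCN (adjusted p = 0.00884). Creld2 differed by 0.28 in Gpr176-/- SCN (adjusted p = 0.0256) and by 0.30 in wild-type SCN (adjusted p = 0.0192). Manf differed by 0.26 in Gpr176-/- SCN (adjusted p = 0.0425) and by 0.09 in wild-type SCN (adjusted p = 0.465). For the calcium-binding lectin Calr the direction was the same in both, at 0.17 in Gpr176-/- SCN (adjusted p = 0.0781) and 0.25 in wild-type SCN (adjusted p = 0.0152). Dnajb9 differed by -0.19 in Gpr176-/- SCN (adjusted p = 0.0779) and by -0.27 in wild-type SCN (adjusted p = 0.0192). Pdia4 differed by 0.19 in Gpr176-/- SCN (adjusted p = 0.166) and by 0.33 in wild-type SCN (adjusted p = 0.027). On the deposited scale the Gpr176-/- calls of Pdia6, Creld2 and Manf were lost (adjusted p = 0.114, 0.059 and 0.0586). With arrays centred on their medians the wild-type calls of Calr and Dnajb9 were lost (adjusted p = 0.0599 and 0.0516). So were the Gpr176-/- calls of Pdia6, Creld2 and Manf (adjusted p = 0.157, 0.0687 and 0.0804). Without a filter the wild-type call of Pdia4 was lost (adjusted p = 0.053). The Gpr176-/- calls of Pdia6 and Manf were lost there too (adjusted p = 0.079 and 0.0757).

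The direction of the time difference was the same in both genotypes for 30 of the 35 members, and for 68.2% of all genes tested. All 12 members called over both genotypes had the same sign in each. They were picked by the average of the 2 genotypes on these arrays, which favours a shared sign. The change was larger in wild-type SCN for 9 of the 12, and the matching share over all genes was not computed. The median size of the change was 0.0997 in Gpr176-/- SCN and 0.108 in wild-type SCN for the 35 members. Over all genes tested it was 0.0766 and 0.0765. Across the 35 genes, which share their arrays and are not independent replicates, the differences of the genotypes correlated with Pearson r = 0.883.

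**Figure D4:**
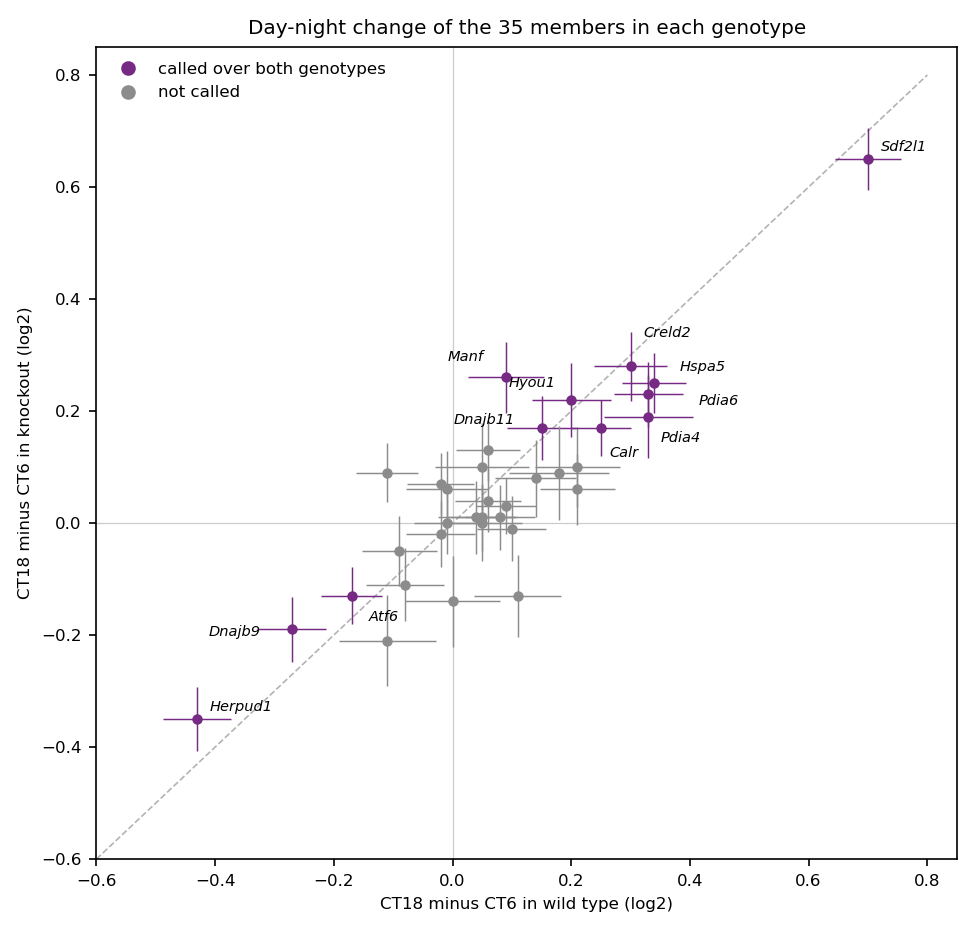
CT18 minus CT6 log2 difference of each of the 35 members in Gpr176-/- SCN (vertical axis) and in wild-type SCN (horizontal axis), with bars of 1 SE each way. The dashed line marks equal change, and Sdf2l1 at the upper right and Herpud1 at the lower left are farthest from 0 in both genotypes.

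Whether the time difference itself depends on Gpr176 was tested as an interaction, the difference in Gpr176-/- SCN minus that in wild-type SCN. By limma, 0 members and 0% of all genes tested were called, with 2 members at an unadjusted p under 0.05, as were 4.86% of all genes. Those members were Ddit3, at 0.20 ± 0.074 SE (95% interval 0.04 to 0.37, adjusted p = 0.944), and Txndc5, at -0.24 ± 0.104 SE (95% interval -0.47 to -0.01, adjusted p = 0.944). Ddit3 read 7.81 and 7.87 in KO CT18 and 7.77 and 7.73 in KO CT6, against 7.78 and 7.81 in WT CT18 and 7.91 and 7.90 in WT CT6. Its arrays spanned little, and those of WT CT6 were highest.

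Among the members called in 1 genotype alone, the interaction was 0.17 for Manf (95% interval -0.04 to 0.37), -0.09 for Calr (-0.25 to 0.07), 0.08 for Dnajb9 (-0.10 to 0.26) and -0.14 for Pdia4 (-0.38 to 0.09). For Sdf2l1 it was -0.05 (95% interval -0.23 to 0.12), for Hspa5 -0.09 (-0.26 to 0.09) and for Herpud1 0.08 (-0.10 to 0.26). Each of these 7 intervals includes 0, and none is narrow enough to show that the time difference is equal in both genotypes.

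The last comparison asked whether loss of Gpr176 changes the level of any member. By limma, 0 of the 35 were called over both times, where 0.0241% of all genes tested were, and 3 members had an unadjusted p under 0.05, as did 12% of all genes. At CT6 alone, 0 members were called (0.00803% of all genes) and 2 had an unadjusted p under 0.05, as did 4.24% of all genes. At CT18 alone, 0 were called (0.00803% of all genes) and 3 had an unadjusted p under 0.05, as did 12.5% of all genes. The median log2 difference over both times was -0.00338 for the members and -0.0101 for all genes, and the members ran between -0.147 and 0.119.

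Dnajc10 had the smallest p, with 9.07 and 9.20 in KO CT18 and 9.19 and 9.29 in KO CT6, against 9.34 and 9.25 in WT CT18 and 9.39 and 9.36 in WT CT6. The Gpr176-/- arrays tended lower and overlapped the wild-type arrays (log2 difference -0.15 ± 0.0462 SE, 95% interval -0.25 to -0.04, adjusted p = 0.353). Sil1 read 9.63 and 9.66 in KO CT18 and 9.58 and 9.56 in KO CT6, against 9.43 and 9.52 in WT CT18 and 9.46 and 9.54 in WT CT6. Its Gpr176-/- arrays were all above its wild-type arrays (log2 difference 0.12 ± 0.0396 SE, 95% interval 0.03 to 0.21, adjusted p = 0.367). The same held for Atf4, with 8.48 and 8.43 in KO CT18 and 8.42 and 8.54 in KO CT6, against 8.38 and 8.34 in WT CT18 and 8.40 and 8.36 in WT CT6 (log2 difference 0.10 ± 0.0415 SE, 95% interval 0.01 to 0.20, adjusted p = 0.397). These 2 were the only members whose genotypes did not overlap (5.71% of 35, against 4.22% of all genes tested).

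At CT6 the smallest p was that of Ddit3 (log2 difference -0.16 ± 0.0523 SE, adjusted p = 0.975), and at CT18 that of Sil1 (0.17 ± 0.0559 SE, adjusted p = 0.332). For the members with the clearest time difference, the genotype difference over both times had a 95% interval of -0.00 to 0.18 for Sdf2l1, -0.10 to 0.07 for Hspa5 and -0.08 to 0.10 for Herpud1. A genotype difference of the size of the time difference lies outside each of these intervals.

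Genes that work beside the module were read from 10 further lists, over both genotypes. For comparison with every list, 10.0% of all genes tested were called higher and 6.79% lower, and no test of the list counts was made. Among other enzymes of oxidative folding, 2 of 13 tested were higher at CT18 and 1 lower. Erp44, which retrieves unassembled proteins to the ER, differed by 0.27 ± 0.0507 SE (adjusted p = 0.00571), Erp29 by 0.17 (adjusted p = 0.0172) and the peroxiredoxin Prdx4 by -0.16 (adjusted p = 0.0468). Among other ER chaperones 1 of 16 was higher, the prolyl isomerase Fkbp2 at 0.27 (adjusted p = 0.0367), and 1 lower, Fkbp7 at -0.21 (adjusted p = 0.0381). Of the translocon and signal peptidase 1 of 19 was higher (Sec11a, 0.17) and 1 lower (Sec63, -0.13), and of the oligosaccharyltransferase 1 of 12 was higher (Magt1, 0.24) and 0 lower. Single arrays decided these counts: with 1 array left out in turn, the calls numbered 1 to 3 for oxidative folding, 0 to 3 for the other chaperones, 0 to 2 for the translocon and 0 or 1 for the oligosaccharyltransferase. The medians of these 4 lists were 0.0166, 0.00886, 0.00847 and 0.0478, beside 0.0484 for the members.

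Further genes of ER-associated degradation had 0 of 23 higher and 2 lower, the lectin Erlec1 at -0.22 (adjusted p = 0.0127) and Edem2 at -0.25 (adjusted p = 0.0131). Of 26 targets of the Eif2ak3 and Atf4 branch, 3 were higher and 2 lower, with a median of -0.0119. Over all genes tested, 10.0% were higher and 6.79% lower. Ppp1r15a (GADD34), which restores translation after Eif2ak3 acts, differed by -0.38 ± 0.0442 SE (adjusted p = 0.000392), while Ddit4 differed by 0.32 (adjusted p = 0.000837) and Mthfd2 by 0.22 (adjusted p = 0.00718). Of 36 genes of ER to Golgi transport, 0 were higher and 3 lower, Sec24a at -0.17, Sec24d at -0.15 and Sar1b at -0.19. Leaving out 1 array in turn gave 1 to 3 calls for degradation, 3 to 5 for the Eif2ak3 and Atf4 branch and 0 to 2 for transport.

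A further list held the bZIP factor genes Atf6b, Creb3, Creb3l1, Creb3l2 and Crebzf and the protease gene Mbtps1. Of these 6 tested genes, 3 were lower at CT18 and 0 higher. Creb3l1 averaged 7.93 in KO CT18 and 7.78 in WT CT18, against 9.33 in KO CT6 and 9.37 in WT CT6 (log2 difference -1.49 ± 0.0474 SE, adjusted p = 7.47e-08). Creb3l2 differed by -0.28 (adjusted p = 0.00166), and the site-1 protease Mbtps1, which cuts Atf6, by -0.14 (adjusted p = 0.0445). On the deposited scale, with arrays centred on their medians or without a filter, the list had 2 calls, both lower, and not 3. A call was also lost with any 1 array left out. With the 50th percentile filter or with trend and robust moderation it had 4, all lower. Creb3l1, a transcription factor that binds the vasopressin gene in rat hypothalamus, had a larger difference in size than any of the 35 members.

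Among heat shock proteins and chaperones outside the ER, 14 of 17 were higher at CT18 and 0 lower, with a median of 0.391. Most are cytosolic, but the list also holds Hspd1 and Hspe1, which are mitochondrial. Dnajb1 differed by 0.99 ± 0.0668 SE (adjusted p = 1.08e-05), Hsph1 by 0.63 (adjusted p = 1.21e-05) and Stip1 by 0.44 (adjusted p = 4.25e-05). Of 21 neuropeptides and granule proteins, which are cargo of the ER, 2 were higher and 7 lower. Prok2 differed by -2.67 (adjusted p = 3.67e-08), Vgf by -1.07 (adjusted p = 8.74e-07) and Avp by -0.90 ± 0.0424 SE (adjusted p = 1.11e-06). Clock genes were called in 11 of 13 cases, 2 higher and 9 lower at CT18.

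**Figure D5:**
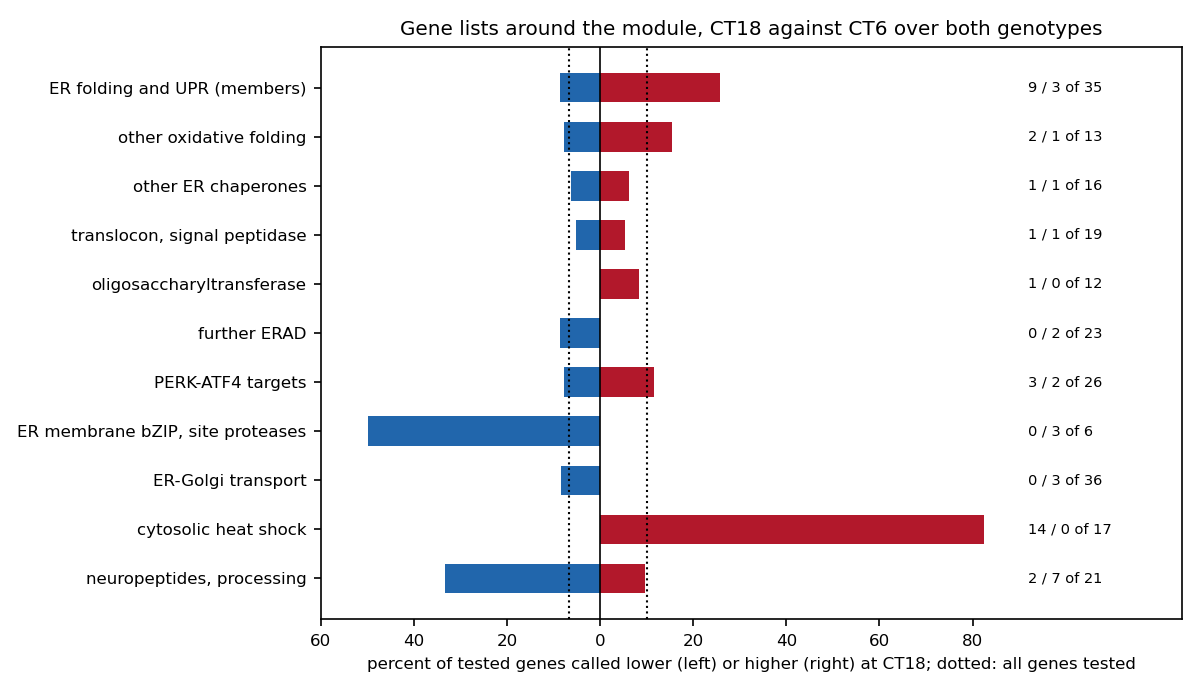
Percent of tested genes called higher (red, to the right) or lower (blue, to the left) at CT18 in the module and the 10 neighbouring lists, with the counts higher and lower of those tested at the right. Dotted lines mark all genes tested, at 10.0% higher and 6.79% lower. The list labelled cytosolic heat shock, which also holds the mitochondrial Hspd1 and Hspe1, reaches 14 of 17.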

How the data were processed

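Single-colour arrays from 8 pools of SCN tissue were analysed, 2 per group. The deposited values are log2 intensities of 28853 probe sets that the authors had processed; the tools and steps are not given in the labels or headers used here. Array medians ran between 7.343 and 7.393. Because their lower quartiles spread by 0.139, above the limit of 0.1 set for this, arrays were quantile normalized. Probe sets with 1 symbol in the platform annotation numbered 21789, those with several 1621 and those unnamed 5443. The brightest probe set per gene was kept, and 7486 genes under the 40th percentile (log2 6.82) were left out. Differences, SEs and adjusted p-values come from limma 3.58.1 in R 4.3.3, with one mean per group over all 8 arrays, adjusted by Benjamini-Hochberg over 12452 genes and called under 0.05; the procedure was tested on simulated data. The labels call pools A and B biological replicates. Their letters were not used to pair the groups in the main fit. Correlations of A minus B between groups ran between -0.222 and 0.257, which cannot show whether pools of the same letter were handled together. No scan or batch information was used. Every member is accounted for, with full statistics for those called and for the smallest p of each contrast; from each neighbouring list, up to 3 called genes with the smallest p are named. Other members and markers given in full were chosen after their values were seen. Members and lists were chosen with earlier results of these data known. Alternatives covered normalization, filter, probe choice, variance moderation, a replicate block and leaving out each array. Motifs were searched in RefSeq promoter windows (GRCm38.p6).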

Additional observations from a re-analysis of the deposited data

Results flagged for a closer look

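In each of 35 members the 4 arrays at CT18 and the 4 at CT6 were searched for a single array far from the others, and 3 of the 70 groups of 4 held one, where chance gives about 1 in 20. Each such group mixes both genotypes. Os9 read 9.72 in KO CT18 B, against 9.61 to 9.62 on the other arrays at CT18, a gap of 0.918 of the range. Syvn1 read 8.83 in WT CT6 A, against 8.73 to 8.74 on the other arrays at CT6, a gap of 0.864 of the range. Ppib read 10.69 in WT CT18 A, against 10.59 to 10.61 on the other arrays at CT18, a gap of 0.839 of the range. None of these 3 genes was called in any contrast.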

How the results depend on the processing

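No called difference changed its sign under any alternative tried. Of the 12 members called between CT18 and CT6 over both genotypes, 8 passed under all 15 alternatives, the exceptions being Hyou1, Manf, Dnajb11 and Atf6, and the count ran between 9 and 13 with an array left out and between 11 and 14 otherwise. In Gpr176-/- SCN the 6 calls became 2 on the deposited scale, 2 with arrays centred on their medians, 3 with only those 4 arrays fitted, and 1 to 5 with an array left out. In wild-type SCN the 8 calls became 3 to 8 with an array left out. Genotype and interaction counts for the members were 0 under every alternative. With the replicate block, 12 members were called over both genotypes, 8 in wild-type SCN and 4 in Gpr176-/- SCN, where Pdia6 (adjusted p = 0.0676) and Manf (adjusted p = 0.0578) no longer passed. With trend and robust moderation Hsp90b1 (adjusted p = 0.0312) and Dnajc3 (adjusted p = 0.0371) passed. Of the neighbouring lists, ER to Golgi transport lost all its calls with arrays centred on their medians (0 of 3), and other ER chaperones had 0 without a filter and 4 with the 50th percentile filter. Genes called over both times between genotypes numbered 3, and 1 to 9 under the alternatives. The causes of these changes were not tested. With 2 arrays a group, the median SE of the interaction was 0.0899, which limits what can be seen there.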
